A study of Homo sapiens with 20 samples.

Results

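To learn which exons change when the U3 small nucleolar RNA is depleted, skipped exon events were compared between HepG2 cells given an antisense oligonucleotide (ASO) against U3 (U3 ASO, 3 libraries) and cells given an ASO against GFP, a gene that human cells lack (GFP ASO, 3 libraries). HepG2 is a cell line from a human liver cancer. All 6 libraries came from unsorted HepG2 cells transfected with 600 pmol of ASO, harvested after 72 h, and sequenced as polyadenylated RNA. The series also holds depletions of the splicing factor FUBP1 and of the methyltransferase FBL, each with its own controls. An event is an internal exon with its neighbouring exons, and its inclusion level is the share of transcripts that keep the exon, on a scale from 0 to 1, estimated from reads across splice junctions and scaled for the length of both forms. The rule kept events whose junction reads averaged 10 or more over the 6 libraries, which held for 30110 of the 32990 events in the U3 table and compares with 59847 events in all 3 tables of the series. At 1 of them a group had no reads, so 30109 events were tested, on 25898 exons of 8455 genes.

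U3 is an abundant box C/D small nucleolar RNA of the nucleolus. It base pairs with the precursor of ribosomal RNA inside a large complex, the small subunit processome, and is needed for the cuts that release the RNA of the small ribosomal subunit. Cassette exons, which a transcript may keep or skip, differ in what they do to the message. Some add or remove a piece of protein, some lie in untranslated sequence, and others, called poison exons, bring in a premature stop codon and send the transcript to nonsense-mediated decay. Genes of SR proteins, which bind exons and promote their inclusion, are well known for poison exons through which they limit their own output. Loss of a coding exon whose length is not a multiple of 3 shifts the reading frame and can have the same outcome.

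Both ASOs had the same layout, shown here because it defines the treatment. Each had 20 bases joined by phosphorothioate bonds, with 5 modified bases at either end in lower case and 10 unmodified DNA bases in capitals between them.
U3 ASO: ucaccTTCACCCTCTccacu
GFP ASO: cugccATCCAGATCGuuauc

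The splice sites of the exons that the results turn on are given next, read from hg38 on the transcribed strand. Intron bases are in lower case and exon bases in capitals. An acceptor window holds the last 20 bases of the intron and 3 of the exon, and a donor window holds 3 bases of the exon and 6 of the next intron. Those of the SR proteins SRSF3, SRSF6 and SRSF2 come first, followed by HNRNPDL, all of them exons that rose in inclusion, and then by EIF4A2 and NOTUM, where inclusion fell.
SRSF3 acceptor, chr6:36599801-36599823, plus strand: aaaaatgaaccccgttacagAGT
SRSF3 donor, chr6:36600274-36600282, plus strand: CTAgtaagt
SRSF6 acceptor, chr20:43459133-43459155, plus strand: ttgatgtttcaatttgaaagTGA
SRSF6 donor, chr20:43459418-43459426, plus strand: GATgtaagt
SRSF2 acceptor, chr17:76735873-76735895, minus strand: tgcattttccccctttaaagCTG
SRSF2 donor, chr17:76735766-76735774, minus strand: CAGgtttgt
HNRNPDL acceptor, chr4:82425665-82425687, minus strand: accttgtttgtacccgccagCGG
HNRNPDL donor, chr4:82425557-82425565, minus strand: GTGgtatgg
EIF4A2 acceptor, chr3:186784942-186784964, plus strand: gtgtatcctactttttttagGGT
EIF4A2 donor, chr3:186785099-186785107, plus strand: CAGgtattg
NOTUM acceptor, chr17:81957906-81957928, minus strand: ccaccccctccctcttgcagACG
NOTUM donor, chr17:81957800-81957808, minus strand: CAGgtgggc
The coding exon of MTSS2 that fell in inclusion had only 9 bases, and it is short enough to be shown whole, with 10 intron bases on either side.
MTSS2 exon, chr16:70679305-70679333, minus strand: cttcctgtagAGCTACTTGgtaagtcaaa

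Inclusion changed at 56 of the 30109 events (0.186%), in 49 genes, with 31 rising (0.103%) and 25 falling (0.083%). The rising events lay mostly in exons that GFP ASO cells rarely used, such as poison exons of SRSF3 and SRSF6. The falling events lay mostly in coding exons that most transcripts of GFP ASO cells kept, such as those of NOTUM and EIF4A2. Most tested events were of this latter kind too, with 85.1% in coding exons and 22410 at a GFP ASO level of 0.9 or more. A change was called when the adjusted p was under 0.1 in a quasi-binomial test, with adjustment over all events. Its dispersion came from a limma trend across events, and 979 events had an unadjusted p under 0.05. At 48 of the called events, 28 rising and 20 falling, the 3 U3 ASO libraries did not overlap the 3 GFP ASO libraries. Over all tested events the groups stood apart in this way with U3 ASO above at 696 (2.31%) and with U3 ASO below at 1119 (3.72%). Called or not, 12287 events had a higher mean level under U3 ASO and 17815 a lower one. With all 6 libraries, limma gave full weight to the trend across events, so an event's own spread did not enter its p. These p-values therefore do not measure the spread of the 3 libraries of a group, which the SDs give. Of the 56 calls, the other 8, in SERPINA1, ITIH2, C3, NTAN1, PTP4A3, TJP1 and ZFAS1, rested on overlapping groups. They are not described further, but the counts of calls by gene list and exon type include them. limma on the log2 odds of inclusion gave 251 calls with a variance trend on information and 0 without a trend, where 1961 events had an unadjusted p under 0.05. In simulated data the form with a trend called 812 unchanged events and the quasi-binomial test called 0. All simulated events were given the same spread, a setting close to what the quasi-binomial test assumes. The simulation therefore cannot rank the 2 tests on the real data. The quasi-binomial test is the main one, and the limma counts here and below are given for comparison alone. For NTAN1 and TJP1, 1 library without reads was left out of the mean.

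Libraries held 11249641 to 13189400 junction reads in GFP ASO and 11296184 to 13321799 in U3 ASO, and the median tested event had 124.5 reads per library. Reads were found at 31545 to 31874 events in the GFP ASO libraries and at 32261 to 32446 in the U3 ASO libraries. Skipping reads made up 5.13% to 5.25% of junction reads in the GFP ASO libraries and 5.75% to 5.85% in the U3 ASO libraries. Of the 8 liver markers examined, 7 had events, led by ALB at 34070 and 28322 reads per 1000000 junction reads of a library (RPM) in GFP ASO and U3 ASO. Of 7 genes that mark blood, connective tissue, vessel, skin or muscle cells, 6 had no event, and PECAM1 was under 1 RPM. U3 has no introns and no event, so its depletion was not checked here.

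Of the called events, 4 lay in the genes of SR proteins and their relatives, a list of 16 genes of which 12 had 43 tested events, and all 4 rose. The genes were SRSF3, SRSF6, SRSF2 and SRRM1, and in each the exon was decay-linked, meaning that GENCODE places it in transcripts marked for nonsense-mediated decay and in no protein-coding transcript. The poison exon of SRSF3 (456 bases, chr6:36599821-36600276, plus strand, hg38) had inclusion levels of 0.0194, 0.0572 and 0.0476 in the GFP ASO libraries and 0.188, 0.184 and 0.193 in the U3 ASO libraries. Every U3 ASO library lay far above every GFP ASO library, and the mean rose from 0.0414 ± 0.0197 to 0.188 ± 0.00422 (SD, n = 3 each, adjusted p = 4.33e-21). Reads that joined the exon to its neighbours went from 8.12 ± 3.90 to 36.7 ± 2.61 RPM, while those that skipped it went from 93.4 ± 5.43 to 79.0 ± 3.83 (SD, n = 3 each). The exon of SRSF6 (268 bases, chr20:43459153-43459420, plus strand) had levels of 0.0690, 0.106 and 0.0910 under GFP ASO and 0.278, 0.259 and 0.276 under U3 ASO, again with no overlap. Its mean rose from 0.0887 ± 0.0186 to 0.271 ± 0.0103 (SD, n = 3 each, adjusted p = 1.48e-20), with inclusion reads at 284% and skipping reads at 73.2% of the GFP ASO mean. Both genes thus had more of the poison form and less of the coding form in the reads of these events.

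SRSF2 and SRRM1 changed in the same direction at smaller read numbers or sizes. SRSF2 is a further SR protein, and its exon of 104 bases (chr17:76735772-76735875, minus strand) rose from 0.0744 ± 0.0162 to 0.154 ± 0.00816 (SD, n = 3 each, adjusted p = 0.000799). SRRM1, a coactivator that joins SR proteins at the exon, had an exon of 130 bases (chr1:24647079-24647208, plus strand) that rose from 0.0782 ± 0.0458 to 0.277 ± 0.00489 (SD, n = 3 each, adjusted p = 0.000629). Without GFP ASO library 1, its adjusted p was 0.341 with a change of 0.173. The list held 9 decay-linked events, and their median change was 0.0797, beside 0.00958 over all 821 decay-linked events tested and -0.00355 over all events. The other 5 lay in SRSF10 and SRSF11, none of them called, with changes from -0.0947 to 0.145 and overlapping groups. None of the 43 events of the list had its U3 ASO libraries below the GFP ASO libraries, and 7 had them above (16.3%, beside 2.31% of all events).

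Among heterogeneous nuclear ribonucleoproteins (hnRNPs), RNA-binding proteins that often favour exon skipping, 122 events of 26 genes were tested, 1 rose and 2 fell. HNRNPDL accounted for the rise and for 1 fall. Its decay-linked exon of 105 bases (chr4:82425563-82425667, minus strand) had levels of 0.0135, 0.0287 and 0.0123 in the GFP ASO libraries and 0.149, 0.207 and 0.203 in the U3 ASO libraries. The mean rose from 0.0182 ± 0.00917 to 0.186 ± 0.0327 (SD, n = 3 each, adjusted p = 4.84e-16), and inclusion reads went from 1.82 ± 0.967 to 14.7 ± 2.58 RPM. Its coding exon 6 of 8 in the canonical transcript (171 bases, chr4:82426463-82426633, minus strand) had levels of 0.9797, 0.992 and 0.999 under GFP ASO and 0.921, 0.936 and 0.933 under U3 ASO. The groups did not overlap, and the mean fell from 0.990 to 0.930 (SD 0.00995 and 0.00826, n = 3 each, adjusted p = 8.49e-06). Inclusion reads of this coding exon were at 67.7% of the GFP ASO mean. HNRNPH3, a small member of the hnRNP H group, had a coding exon of 139 bases (exon 3 of 10) that fell from 0.923 ± 0.0129 to 0.816 ± 0.0279 (SD, n = 3 each, adjusted p = 0.0439). It was called in 1 of the 6 fits that left out a library, with adjusted p up to 0.499 (without GFP ASO library 2). Of the RBM family of RNA-binding proteins, with 95 events, 1 fell and none rose. It was the decay-linked exon of 72 bases in the splicing cofactor RBM39 (chr20:35734186-35734257, minus strand), the only called decay-linked exon that fell, from 0.122 ± 0.0147 to 0.0697 ± 0.0113 (SD, n = 3 each, adjusted p = 0.00470). Without GFP ASO library 1 its adjusted p was 0.117, and without U3 ASO library 1 it was 0.172. TIA1, which binds uridine-rich intron sequence and aids the use of weak donors, rose at an exon of 104 bases that GENCODE does not list, from 0.00776 ± 0.0134 to 0.155 ± 0.0760 (SD, n = 3 each, adjusted p = 0.0705). The TIA1 call was lost in 5 of the 6 fits that left out a library, with adjusted p up to 0.748 (without U3 ASO library 2). By the same test, 0 events were called among core spliceosome proteins (222 events, 11 with an unadjusted p under 0.05), splicing kinases (23 events, 1) and exon junction and decay factors (113 events, 2), where limma on the log2 odds of inclusion with a variance trend called 2, 0 and 0.

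**Figure D1:**
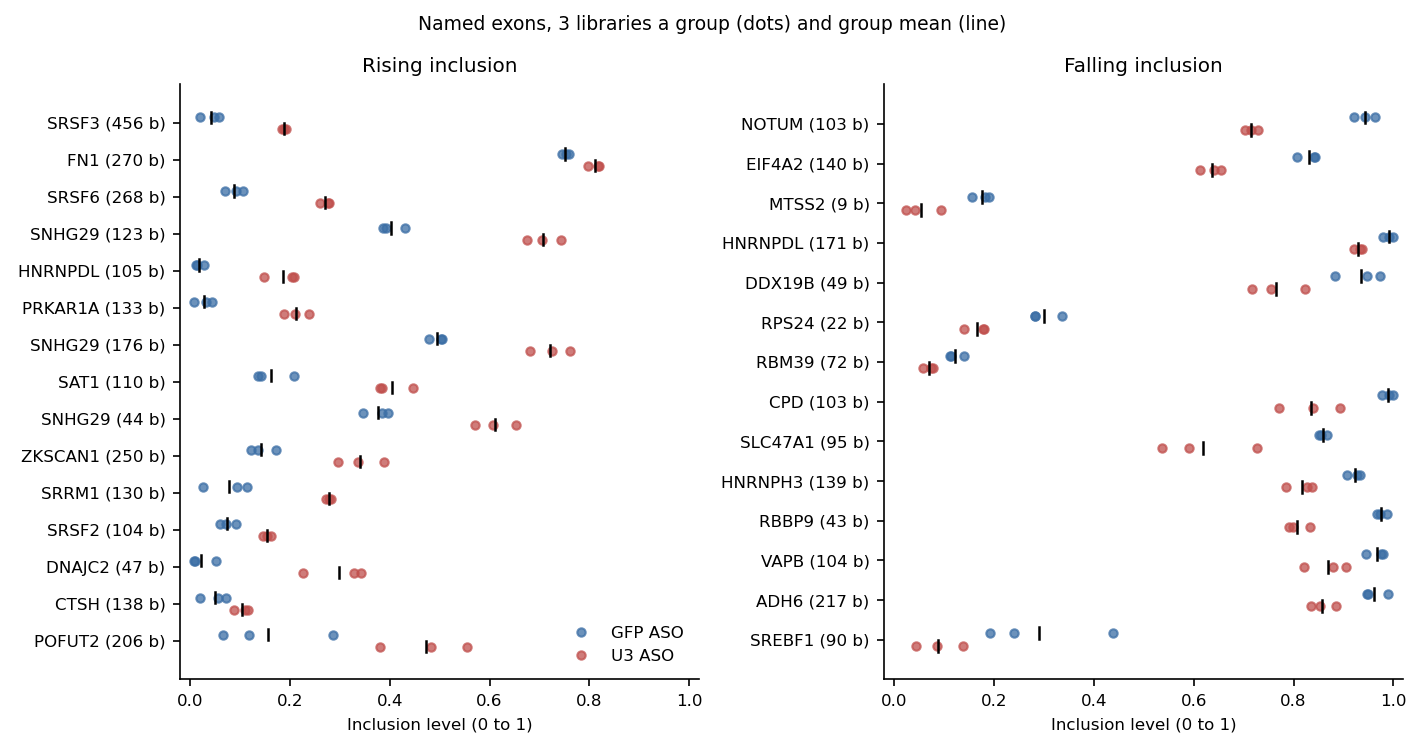
Inclusion level, from 0 to 1 on the horizontal axis, at the 15 rising and 14 falling exons named by rule, with exon length in bases (b) after the gene. Each dot is 1 library, blue for GFP ASO and red for U3 ASO, and the black line is the mean of 3 libraries. Groups do not overlap at any of these exons because the rule asked for that. Of the rising exons, 14 start below 0.5, and of the falling exons, 10 start above 0.8.

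Host genes of small nucleolar RNAs, which carry these RNAs in their introns, had 123 tested events in 26 genes. Of these, 5 rose and 1 fell, beside 31 and 25 of all 30109 events. The fall was that of EIF4A2 described further on, and 1 of the rises was the ZFAS1 call with overlapping groups. SNHG29, a noncoding host gene on chromosome 17, gave 3 of the rises, and these used the same skipping junction and the same donor with 3 alternative acceptors, so they are 1 measurement of skipping and not 3. The form of 123 bases (chr17:16439581-16439703, plus strand) had levels of 0.392, 0.432 and 0.386 in the GFP ASO libraries and 0.743, 0.705 and 0.674 in the U3 ASO libraries. Its mean rose from 0.403 ± 0.0248 to 0.708 ± 0.0343 (SD, n = 3 each, adjusted p = 2.53e-16). The forms of 176 and 44 bases rose by 0.227 and 0.235. Skipping reads, shared by the 3 forms, went from 42.3 ± 0.533 to 17.8 ± 3.29 RPM (SD, n = 3 each), or 42% of the GFP ASO mean. Inclusion reads differed less, at 149.6%, 111% and 109% of the GFP ASO mean for the forms of 123, 176 and 44 bases. ZFAS1, a host gene on chromosome 20, rose at its exon of 62 bases from 0.477 ± 0.0776 to 0.613 ± 0.0426 (SD, n = 3 each, adjusted p = 0.0645). The ZFAS1 call was lost without GFP ASO library 2 (0.892), GFP ASO library 3 (0.937), U3 ASO library 1 (0.144) or U3 ASO library 2 (0.871).

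PRKAR1A and SAT1 showed the same pattern of a rarely used exon that was used more. PRKAR1A encodes a regulatory subunit of the cyclic AMP-dependent protein kinase, and its exon lies in the 5′ UTR (133 bases, chr17:68514987-68515119, plus strand). The levels were 0.00850, 0.0447 and 0.0321 in the GFP ASO libraries and 0.239, 0.209 and 0.188 in the U3 ASO libraries. The mean rose from 0.0284 ± 0.0184 to 0.212 ± 0.0257 (SD, n = 3 each, adjusted p = 8.45e-14), with inclusion reads going from 2.26 ± 1.36 to 17.9 ± 2.88 RPM. SAT1 acetylates spermidine and spermine, and its poison exon is known to answer to polyamine levels. This decay-linked exon (110 bases, chrX:23784294-23784403, plus strand) rose from 0.162 ± 0.0406 to 0.404 ± 0.0368 (SD, n = 3 each, adjusted p = 1.17e-06). Here reads of both forms were higher under U3 ASO, at 496% for inclusion and 142% for skipping. It was the only called event among 31 of genes that control polyamines, and the PRKAR1A exon was the only one among 74 of cyclic AMP signalling genes.

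The remaining rising exons named by rule came from genes of unrelated roles. The decay-linked exon of DNAJC2, a chaperone that sits on the ribosome, rose from 0.0225 ± 0.0246 to 0.299 ± 0.0630 (47 bases, SD, n = 3 each, adjusted p = 0.00118), with 151 reads per library. CTSH, a lysosomal protease, rose at a decay-linked exon of 138 bases from 0.0491 ± 0.0273 to 0.104 ± 0.0153 (SD, n = 3 each, adjusted p = 0.0102). ZKSCAN1, a zinc finger protein, rose at an exon of 250 bases that GENCODE does not list from 0.143 ± 0.0260 to 0.340 ± 0.0467 (SD, n = 3 each, adjusted p = 0.000176). POFUT2, which adds fucose to secreted proteins, rose at a coding exon of 206 bases outside the canonical transcript from 0.157 ± 0.115 to 0.472 ± 0.0868 (SD, n = 3 each, adjusted p = 0.0139). Among 141 events of the respiratory chain, 2 rose and none fell. They were a decay-linked exon of NDUFS4, a subunit of complex I, which rose from 0.0142 ± 0.0194 to 0.0710 ± 0.0198, and a 5′ UTR exon of ATP5MD, a small subunit of the ATP synthase, which rose from 0.118 to 0.217 (SD 0.0240 and 0.0174, n = 3 each). The calls at NDUFS4 and ATP5MD were each lost in 4 of the 6 fits that left out a library, with adjusted p up to 0.642 and 0.798, both without GFP ASO library 2. CTSH was not called without GFP ASO library 3 (adjusted p = 0.937), U3 ASO library 1 (0.117) or U3 ASO library 2 (0.267), nor POFUT2 without GFP ASO library 2 (0.237), GFP ASO library 3 (0.668), U3 ASO library 1 (0.104) or U3 ASO library 3 (0.265).

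Secreted plasma proteins, the main products of liver cells, held 21.9% ± 0.215 of all junction reads in the GFP ASO libraries and 17.5% ± 0.0118 in the U3 ASO libraries (SD, n = 3 each, exact permutation test, two-sided, p = 0.1, below which 3 libraries against 3 cannot go). Of their 248 events, 2 rose and 6 fell, and 4 of these 8 calls, in SERPINA1, ITIH2 and C3, are among those with overlapping groups. Fibronectin (FN1), a protein of plasma and of the extracellular matrix, changed at both of its extra domain exons, in opposite directions. The EDA exon (270 bases, exon 33 of 46, chr2:215380811-215381080, minus strand) had levels of 0.744, 0.753 and 0.758 in the GFP ASO libraries and 0.797, 0.817 and 0.819 in the U3 ASO libraries. At 36534 junction reads per library, the mean rose from 0.752 ± 0.00700 to 0.811 ± 0.0121 (SD, n = 3 each, adjusted p = 4.33e-21). Inclusion reads were at 137% and skipping reads at 96.6% of the GFP ASO mean. The EDB exon (273 bases, exon 25 of 46, chr2:215392931-215393203, minus strand) fell from 0.0698 ± 0.00362 to 0.0437 ± 0.00161 (SD, n = 3 each, adjusted p = 1.96e-08). Both exons code for whole fibronectin type III repeats and keep the reading frame. In the same group, single coding exons of APOB and AFP fell by amounts that only their depth of 29400 and 55047 reads per library resolved, with levels of 0.998 to 0.992 and 0.998 to 0.995. The APOB call was lost without GFP ASO library 2 (adjusted p = 0.115) or U3 ASO library 2 (0.139), and the AFP call in 4 of 6 such fits, with adjusted p up to 0.741 (without U3 ASO library 3).

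Coding exons made up 21 of the 25 falling events, and 18 of the 20 falling events whose groups stood apart (90%). Of these 20, 13 had a level of 0.9 or more under GFP ASO. Most of the 30109 tested events were of this kind too, with 85.1% coding and 22410 at such a level. NOTUM, a secreted enzyme that inactivates Wnt proteins, fell at exon 6 of 11 (103 bases, chr17:81957806-81957908, minus strand). Its levels were 0.922, 0.963 and 0.944 in the GFP ASO libraries and 0.703, 0.714 and 0.729 in the U3 ASO libraries. The mean fell from 0.943 ± 0.0207 to 0.715 ± 0.0131 (SD, n = 3 each, adjusted p = 2.87e-08), with skipping reads going from 2.82 ± 1.19 to 9.62 ± 0.896 RPM and inclusion reads from 77.3 ± 13.9 to 41.1 ± 6.11. Exon 2 of NOTUM (53 bases) also fell, from a mean of 1.00 to 0.966 (adjusted p = 0.0005). Inclusion reads of both exons were fewer, and skipping reads more, in every U3 ASO library.

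EIF4A2 is an RNA helicase of translation initiation. Its exon 4 of 11 (140 bases, chr3:186784962-186785101, plus strand) had levels of 0.841, 0.807 and 0.844 in the GFP ASO libraries and 0.655, 0.613 and 0.642 in the U3 ASO libraries. The mean fell from 0.831 ± 0.0203 to 0.637 ± 0.0212 (SD, n = 3 each, adjusted p = 1.09e-07), and GENCODE marks the transcripts that skip this exon for decay. It was the only called event among 183 of translation initiation and elongation factors, of which 2 lay apart above (1.09%) and 14 below (7.65%, beside 3.72% of all events). DDX19B, a helicase of messenger RNA export, fell at exon 2 of 12 (49 bases, chr16:70312609-70312657, plus strand), where skipping is likewise marked for decay. Levels were 0.973, 0.948 and 0.883 against 0.756, 0.824 and 0.717, and the mean fell from 0.934 ± 0.0463 to 0.765 ± 0.0542 (SD, n = 3 each, adjusted p = 0.000629). DDX19B has a close copy beside it, DDX19A, so their reads are uncertain, and the call was lost without U3 ASO library 3 (change -0.145, adjusted p = 0.104). Beside it, an exon of 61 bases in DDX19A rose from 0.00244 ± 0.00212 to 0.0525 ± 0.0183 (SD, n = 3 each, adjusted p = 0.0634).

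Very short exons gave 2 of the falling events and none of the rising ones, out of 426 tested events at exons of up to 30 bases. The groups stood apart above at 2.82% and below at 4.93% of these, close to the 2.31% and 3.72% of all events. The exon of 9 bases in MTSS2, a protein that bends membranes, is exon 7 of 15 and is shown above. Its levels were 0.191, 0.183 and 0.156 in the GFP ASO libraries and 0.0942, 0.0238 and 0.0415 in the U3 ASO libraries, and the mean fell from 0.176 ± 0.0183 to 0.0532 ± 0.0366 (SD, n = 3 each, adjusted p = 7.99e-07). The other was the exon of 22 bases in RPS24, a protein of the small ribosomal subunit (chr10:78040204-78040225, plus strand). It was classed as 3′ UTR because it lies outside the coding sequence that GENCODE marks. The levels of this exon were 0.337, 0.282 and 0.282 against 0.180, 0.177 and 0.139, and the mean fell from 0.300 ± 0.0316 to 0.166 ± 0.0227 (SD, n = 3 each, adjusted p = 0.00116). The call was lost without U3 ASO library 3 (change -0.122, adjusted p = 0.426). Inclusion reads of RPS24 were at 35.9% and skipping reads at 79.5% of the GFP ASO mean. No other event of the 98 in cytosolic ribosomal protein genes was called, and these genes held 7.52% ± 0.238 of junction reads under GFP ASO and 5.64% ± 0.139 under U3 ASO (SD, n = 3 each, exact permutation p = 0.1).

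**Figure D2:**
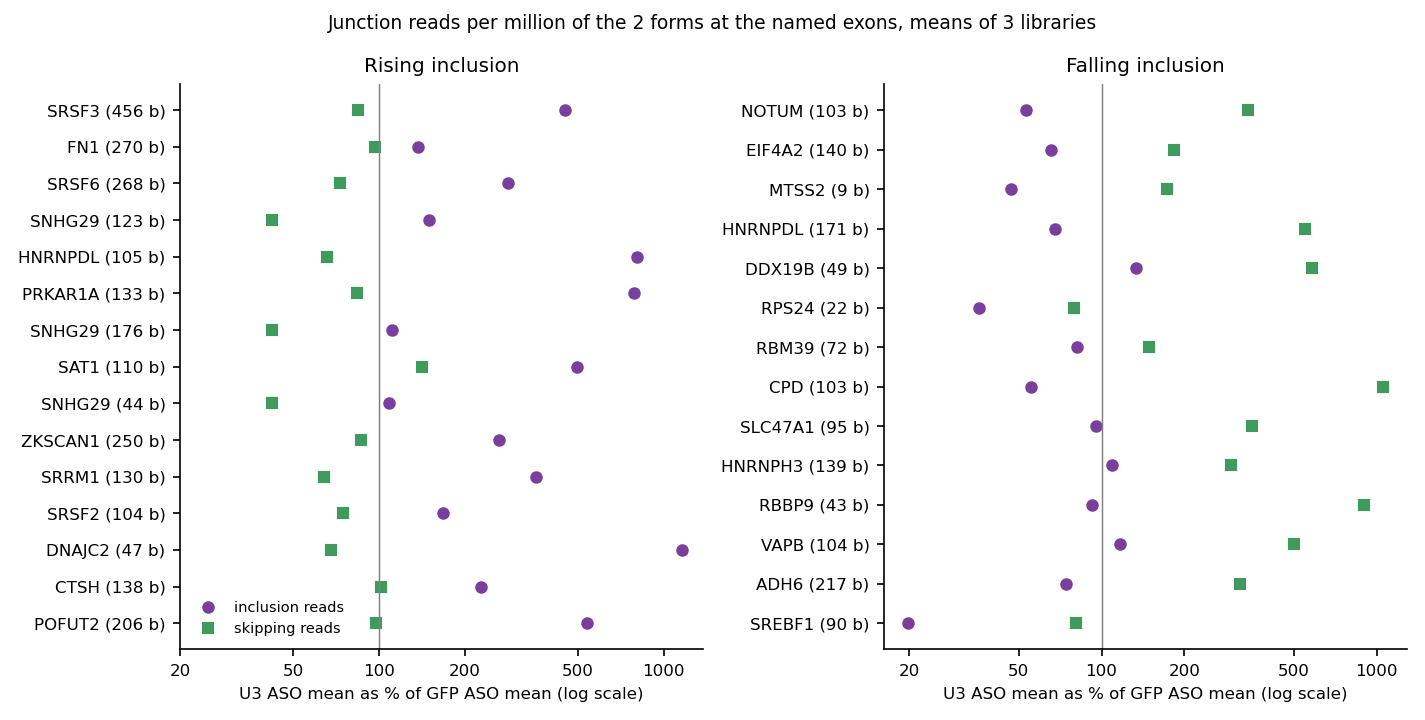
Junction reads (RPM) that include (circles) or skip (squares) each named exon, as U3 ASO mean in percent of GFP ASO mean on a log scale, from 3 libraries a group. Inclusion reads are to the right of 100% at all 15 rising exons, led by DNAJC2 at 1163%, and skipping reads are to the right at 12 of the 14 falling exons, with RPS24 and SREBF1 as the exceptions.

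Reads of the 2 forms showed which side of an event moved. At the 15 rising exons named, inclusion reads (RPM) were above the GFP ASO libraries in all 3 U3 ASO libraries at 13, and skipping reads were below at 8 and above at 1. At the 14 falling exons, skipping reads were above at 12, while inclusion reads were below at 8, above at 2 and overlapped at 4. Skipping reads were few at several of them, as at exon 9 of the carboxypeptidase gene CPD, with 0.262 ± 0.323 and 2.76 ± 1.73 RPM (SD, n = 3 each), where the level fell from 0.990 to 0.834 (adjusted p = 0.00838). SLC47A1, a transporter that exports organic cations, fell from 0.858 ± 0.00839 to 0.618 ± 0.0979 at exon 15 of 17 (SD, n = 3 each, adjusted p = 0.0328). The hydrolase RBBP9, the membrane tether VAPB and the alcohol dehydrogenase ADH6 changed by -0.168, -0.0982 and -0.103, each from a level above 0.96. SREBF1, which drives fatty acid and sterol genes, fell at a coding exon of 90 bases from 0.291 ± 0.131 to 0.0885 ± 0.0468 (SD, n = 3 each, adjusted p = 0.0967), the only called event of 240 in lipid and cholesterol genes. The calls at CPD, SLC47A1, RBBP9, VAPB, ADH6 and SREBF1 were lost in 2 or more of the 6 fits that left out a library, with adjusted p of 0.986 for CPD, 0.502 for SLC47A1 and RBBP9, and 0.986 for ADH6 and SREBF1 without U3 ASO library 3, and 0.899 for VAPB without U3 ASO library 1.

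Exon types were compared next. Decay-linked exons made up 821 of the 30109 tested events (2.73%) and 10 of the 56 called ones, with 9 rising and 1 falling. Coding exons made up 25613 tested events (85.1%), with 8 rising and 21 falling, of which 7 and 18 had groups apart. Among decay-linked exons, the U3 ASO libraries lay apart above the GFP ASO libraries at 79 (9.62%) and below at 20 (2.44%), whereas among coding exons they lay above at 407 (1.59%) and below at 1000 (3.90%). The mean inclusion level of decay-linked exons was 0.321, 0.309 and 0.323 in the GFP ASO libraries and 0.342, 0.333 and 0.333 in the U3 ASO libraries, a difference of 0.0180 with no overlap (exact permutation p = 0.1). For coding exons it was 0.913 in each GFP ASO library and 0.907, 0.908 and 0.908 in the U3 ASO libraries, a difference of -0.00520 (exact permutation p = 0.1). Over all tested events the mean level differed by -0.00320 (exact permutation p = 0.1). Under a restriction to transcripts that GENCODE tags as basic, only 15 decay-linked events were left, and their difference was 0.00453.

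The other classes outside coding sequence leaned upward or did not separate. Exons found only in noncoding transcripts of coding genes (305 events) had 2 rises and no fall, 7.87% apart above and 1.64% below, and a mean level higher by 0.0209 (exact permutation p = 0.1). The rises were at HDGF, a growth factor that binds chromatin, from 0.00637 to 0.0293, and at DDX19A. The HDGF call was lost without GFP ASO library 2 (adjusted p = 0.115), U3 ASO library 2 (0.120) or U3 ASO library 3 (0.691), and the DDX19A call on leaving out any 1 library (up to 0.668, without U3 ASO library 2). Exons in a 5′ UTR (1792 events) had 4 rises, in PRKAR1A, PPIA, ATP5MD and RAB5C, and no fall, but their mean level overlapped between the groups, with a difference of 0.00359 (exact permutation p = 0.4). PPIA, the abundant proline isomerase cyclophilin A, has many processed copies in the genome, so its rise from 0.0174 ± 0.00358 to 0.0360 ± 0.00271 (SD, n = 3 each) is uncertain in size. Exons of noncoding genes (536 events) had 5 rises, all in SNHG29 and ZFAS1, of which 4 had groups apart. Their mean difference was 0.00162 (exact permutation p = 1). Exons that GENCODE does not list at these coordinates (1037 events, alternate contigs included) had 3 rises and 2 falls. Of these, 2 rises, at ZKSCAN1 and TIA1, and 0 falls had groups apart.

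**Figure D3:**
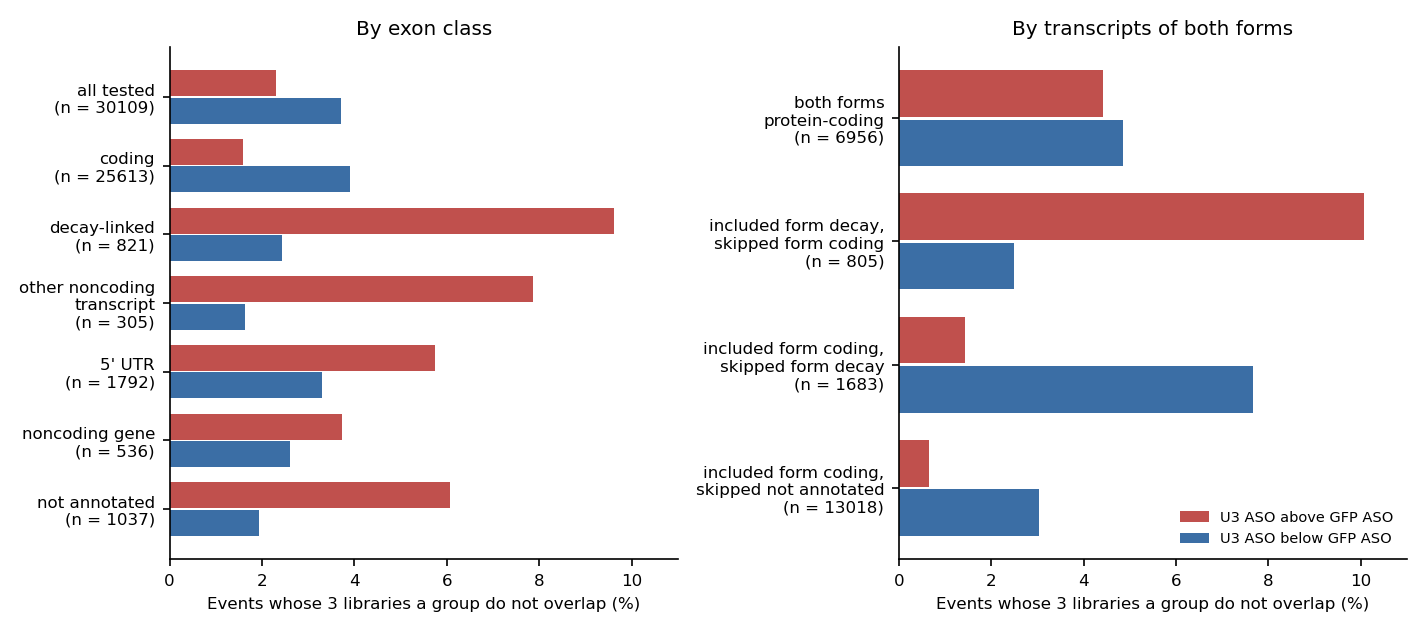
Percentage of tested events whose 3 U3 ASO libraries lie wholly above (red) or wholly below (blue) the 3 GFP ASO libraries, by exon class on the left and by the GENCODE transcripts of the included and the skipped form on the right, with the number of events in brackets. Decay-linked exons reach 9.62% above against 2.44% below, and the order is the opposite for coding exons, at 1.59% and 3.90%.

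Sorting events by the transcripts that GENCODE lists for both forms gave the same order from either side. Where the included form was marked for decay and the skipped form was protein-coding (805 events), 8 rose and 1 fell, and inclusion levels lay apart above at 10.1% and below at 2.48%. Where the skipped form was the one marked for decay (1683 events), 0 rose and 4 fell, in EIF4A2, DDX19B, APOB and ADH6, and levels lay apart above at 1.43% and below at 7.66%. The mean level went from 0.320 to 0.340 in the first set, up by 0.0198, and from 0.952 to 0.936 in the other, a difference of -0.0160 (exact permutation p = 0.1 for each). Where both forms were protein-coding (6956 events), 10 rose and 8 fell, the shares apart were 4.43% above and 4.84% below, and the mean levels overlapped with a difference of -0.000845 (exact permutation p = 0.4). A downward lean was also seen where the included form was protein-coding and GENCODE lists no skipped form (13018 events). There 1 rose and 7 fell, and levels lay apart above at 0.645% and below at 3.03%. The mean level of that set differed by -0.00407 (exact permutation p = 0.1). In both sets with a decay form, the mean share of that form was higher in each U3 ASO library than in any GFP ASO library. The sets differed in level and were not matched for it. All events with a level of 0.9 to 0.98 lay apart at 1.62% above and 6.02% below, and those of 0.1 to 0.5 at 10.4% and 4.90%. Poly(A) libraries measure the RNA that remains, and altered splicing and altered decay of a form cannot be told apart here.

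Coding exons were split by whether their length was a multiple of 3. The mean level of the 14743 events that shift the frame differed by -0.00730, with levels apart above at 1.03% and below at 4.41%. For the 10870 that keep it, it differed by -0.00234, with 2.35% above and 3.22% below. Mean levels under GFP ASO were 0.937 for events that shift the frame and 0.880 for those that keep it, and the 2 kinds were not matched for level. U3 ASO lay below GFP ASO in every library for either kind (exact permutation p = 0.1 for each). Of the called coding exons, 5 that shift the frame rose and 14 fell, and 3 that keep it rose and 7 fell.

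**Figure D4:**
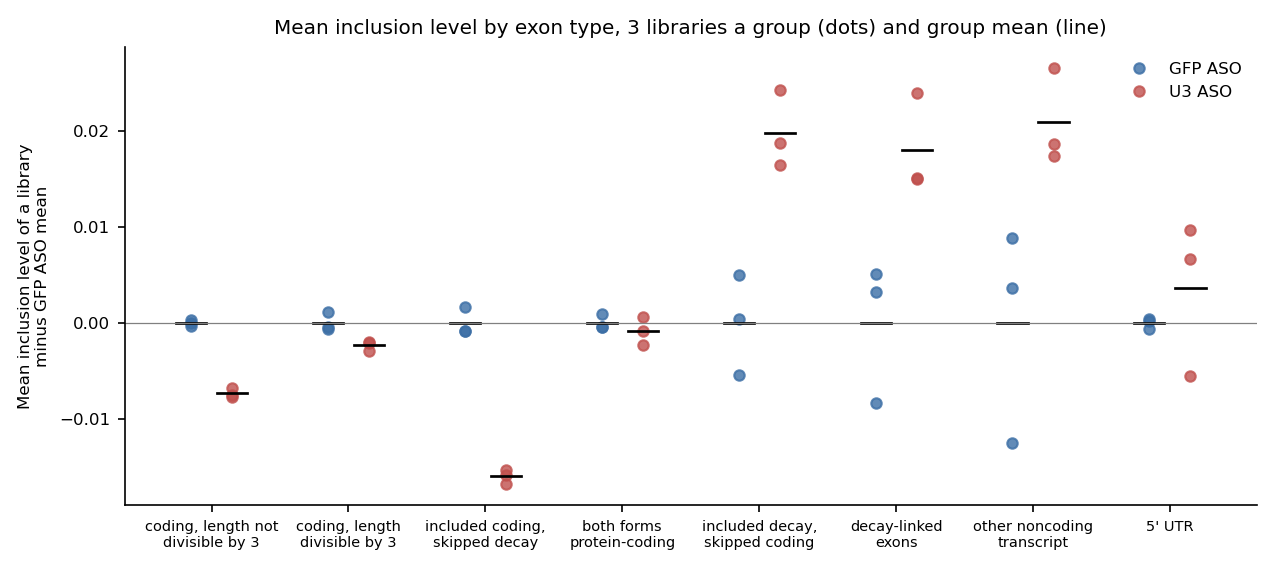
Mean inclusion level of each library over the events of an exon type, minus the mean of the GFP ASO libraries, with a black line at each group mean. The 3 U3 ASO libraries (red), at levels of 0.333 to 0.342, lie above that mean for decay-linked exons, below it for coding exons and for events whose skipped form is marked for decay, and on both sides of it in the 5′ UTR.

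The direction of the calls differed with the level at which an exon was used, and since the classes differ in level, both were examined together. Of events with a mean level over the 6 libraries below 0.1, 8 rose and 2 fell (8.26% apart above and 1.15% below). Between 0.1 and 0.5, 14 rose and 4 fell (10.4% and 4.90%). From 0.5 to 0.9 the directions were balanced, with 8 rising and 8 falling (4.23% apart above and 5.56% below). From 0.9 to 0.98, 1 rose and 5 fell (1.62% and 6.02%), and from 0.98 to 1, 0 rose and 6 fell (0.315% and 2.25%). These counts include the calls with overlapping groups. A level near either end of the scale leaves room on 1 side only. Among events below 0.5, decay-linked exons (576) lay apart above at 12.5% and below at 1.91%, 5′ UTR exons (894) at 9.51% and 2.35%, and coding exons (1622) at 7.95% and 4.07%. The mean level of these rarely used exons was higher under U3 ASO by 0.0248 for the decay-linked, 0.0142 for the 5′ UTR and 0.00775 for the coding class. At levels of 0.5 or more, decay-linked exons (245) had no call by the quasi-binomial test, with 7 at an unadjusted p under 0.05 and 3 calls by limma with a variance trend, and a difference in mean level of 0.00130.

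Stop codons and neighbouring introns were examined as features that the choice of events had not used. A stop codon of a decay-marked transcript lay inside the exon at 596 of the 821 decay-linked events (72.6%), at 5 of the 9 rising ones, in SRSF3, SRSF6, SAT1, SRRM1 and CTSH, and at RBM39. Exons with and without such a stop lay apart above at 10.2% and 8%. The introns around the 28 rising events whose groups stood apart were short, with a median of 603.5 bases before and 663 bases after the exon, beside 2573 and 2264 bases for all tested events and 1634 and 1886 bases for all decay-linked events. For the 20 falling events the medians were 1256 and 1134.5 bases. The called events also had more reads, with medians of 734 and 1188 per library against 124.5, so the calls came from deeply covered events. Where both introns were under 1000 bases (4303 events), 11 rose and 9 fell, while the shares apart, 2.23% above and 4.53% below, were close to those of all events.

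Splice-site sequence differed little. The last 20 intron bases held a median of 65% pyrimidines at rising and falling events and 70% at all events, and the donor matched 7 of the 9 consensus positions at the median in each set. SRSF3, whose acceptor is shown above, had 40% pyrimidines there, below the lower quartile of all events, 60%. Exon GC content had a median of 50.0% at rising, 46% at falling and 48.6% at all events.

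Other gene groups had few or no calls. With 0 calls stood genes of the U3 processome and box C/D particles (152 events, 2 with an unadjusted p under 0.05), the p53 pathway (106 events, 4), mitochondrial ribosomal proteins (167 events, 4), zinc finger genes of the ZNF series (518 events, 11), the cell cycle (169 events, 8) and long noncoding RNAs (22 events, 0), of which limma with a variance trend called 1, 1, 0, 3, 3 and 1. The event with the smallest p in the processome group lay in SNU13, a protein that binds U3 itself, where a coding exon of 232 bases went from 0.202 ± 0.0343 to 0.339 ± 0.0309 (SD, n = 3 each, adjusted p = 0.206). Its groups did not overlap, but it did not pass the threshold. In the p53 group it was TP53I3, a p53 target, with 0.859 ± 0.0293 and 0.974 ± 0.00336 (SD, n = 3 each, adjusted p = 0.117), and in the core spliceosome the branch point protein SF1, with 0.983 ± 0.0111 and 0.933 ± 0.0249 (SD, n = 3 each, adjusted p = 0.117). Actin and adhesion genes rose at 1 of 289 events, the exon of 60 bases in the spectrin gene SPTAN1, from 0.438 ± 0.0108 to 0.573 ± 0.0283 (SD, n = 3 each, adjusted p = 0.0590). Membrane traffic genes rose at 1 of 665, in RAB5C, a small GTPase of early endosomes, from 0.0188 ± 0.0142 to 0.0498 ± 0.00912 (SD, n = 3 each, adjusted p = 0.0634). The SPTAN1 call was lost on leaving out any 1 library (adjusted p up to 0.625, without U3 ASO library 2), and the RAB5C call in 4 of 6 such fits (up to 0.937, without GFP ASO library 3).

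A few rises in coding exons that are no part of these groups complete the list. TNFRSF19, a receptor of the tumour necrosis factor family, rose at exon 9 of 10 (406 bases) from 0.712 ± 0.128 to 0.957 ± 0.0161 (SD, n = 3 each, adjusted p = 0.0255). HAUS2, a subunit of the augmin complex that branches microtubules, rose at an exon of 89 bases from 0.0813 ± 0.0196 to 0.420 ± 0.0460 (SD, n = 3 each, adjusted p = 0.0443). SH3D19, an adaptor protein, rose at an exon of 69 bases from 0.231 to 0.435, and DBI, which binds acyl-CoA, at an exon of 86 bases from 0.00971 to 0.0299. Falls of under 0.05 lay in CPNE1, which binds phospholipids, from 0.995 to 0.958, and in ETFB, an electron carrier of mitochondria, from 1.00 to 0.991. Of the 19 called events named without being among the 29, 3 stayed called in all 6 fits that left out a library, FN1 exon 25, NOTUM exon 2 and PPIA, and 16 did not. Adjusted p without U3 ASO library 3 was 0.405 for TNFRSF19, 0.502 for HAUS2 and SH3D19, 0.129 for DBI and 0.969 for ETFB, and 0.820 for CPNE1 without U3 ASO library 2.

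To see whether U3 depletion differed from another depletion in the same cells, its change in log2 odds of inclusion was tested against that after siFUBP1, an siRNA against a splicing factor, relative to siCtrl2, with 3 libraries in each group harvested at 48 h. Of 12373 events with enough reads in both tables, 62 differed (0.501%) by limma with a variance trend, and 15 of these were among the 50 called U3 events that could be compared. A quasi-binomial form of the same test, added after the data had been seen, called 25, and 8 called U3 events passed both. The called U3 events were chosen for a change in the same U3 ASO and GFP ASO reads, which favours a difference among them. Their number here is therefore no separate support for the calls. The limma form of this difference was not run on simulated data, and only the 8 that passed both are described as differing. They were the decay-linked exons of SRSF6, HNRNPDL and SAT1, the SNHG29 exon of 123 bases, both FN1 exons, EIF4A2 and NOTUM exon 2. Controls of the 2 experiments already differed at some of these. HNRNPDL was at 0.0182 in GFP ASO and 0.199 in siCtrl2, beside 0.186 in U3 ASO. FN1 exon 33 was at 0.752, 0.869 and 0.811 in the same order. The controls were closer at EIF4A2, with 0.831 in GFP ASO and 0.857 in siCtrl2. SRSF6 went from 0.153 to 0.133 after siFUBP1, a change of -0.0209 beside 0.183 after U3 ASO (difference in log2 odds 2.27 ± 0.35 (SE), adjusted p = 5.88e-07 by limma and 0.0223 by the quasi-binomial form). EIF4A2 went from 0.857 to 0.903, a change of 0.0460 beside -0.194 (difference -2.10 ± 0.41 (SE), adjusted p = 0.000589 and 0.00208). The EDB exon of FN1 had a change of 0.0659 after siFUBP1 beside -0.0262 after U3 ASO (difference -1.50 ± 0.0712 (SE), adjusted p = 3.99e-63 and 5.87e-16). For SRSF3 the adjusted p was 0.0560 by limma and 0.924 by the quasi-binomial form, and for SRSF2 neither form passed, with changes of 0.0333 after siFUBP1 and 0.0797 after U3 ASO. The 2 experiments differed in reagent, harvest time and depth, which cannot be told apart from the depleted gene.

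**Figure D5:**
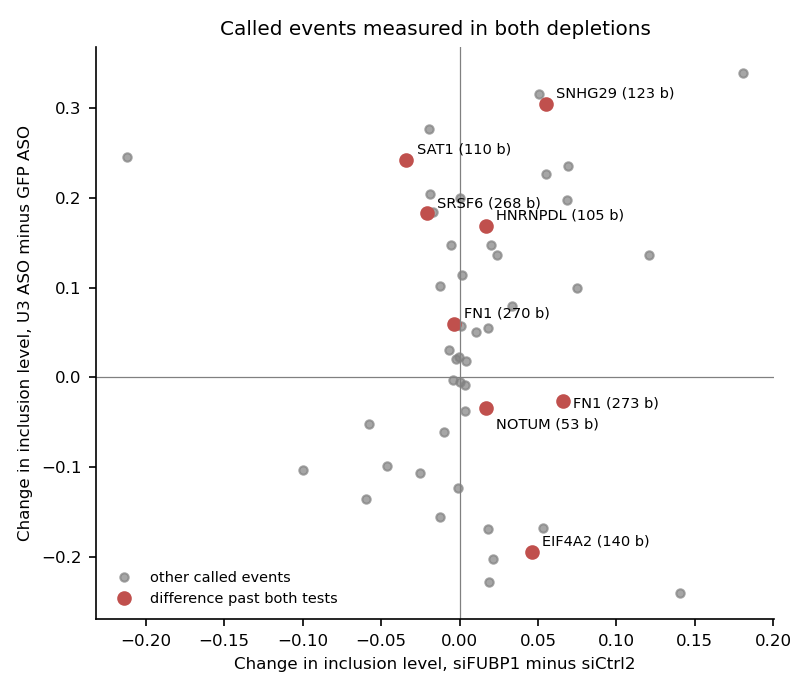
Change in inclusion level after siFUBP1 (horizontal axis) and after U3 ASO (vertical axis) at the called U3 events measured in both, each the mean of 3 libraries minus the mean of 3 controls. The 8 red points are the events whose difference passed both tests, with EIF4A2 below the horizontal line and right of the vertical one and SRSF6 and SAT1 above and left of them.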

How the data were processed

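Polyadenylated RNA of HepG2 cells was sequenced after U3 ASO or GFP ASO (3 libraries each). Per the study's methods, the authors trimmed reads with cutadapt, aligned them to hg38 with HISAT2 and counted skipped exon events with rMATS, whose versions are not given in the sources used here. The deposited table holds, for each event, comma-separated lists of inclusion and skipping junction read counts per library and the effective length of both forms. The authors' p-values, false discovery rates and inclusion differences in the same table were not used, nor were 6 columns of inclusion levels. The lists carry no replicate numbers, so libraries are named by their place in a list. The study's methods call the 3 libraries of a group biological replicates.

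Inclusion levels were computed as length-scaled shares. Events with a mean of at least 10 reads per library were tested with a quasi-binomial model per event. The dispersion was taken from limma 3.58.1 (R 4.3.3) as a trend over events with information of at least 5. With all 6 libraries, an event's own dispersion had no weight beside this trend. P-values were adjusted by Benjamini-Hochberg over all 30109 events. An adjusted p under 0.1 was called. Means of exon types, read shares and reads of each form were compared by exact two-sided permutation tests of 3 against 3 libraries, which cannot go below 0.1. Exons were classed by exact coordinates in GENCODE release 44 on hg38. Named events were the called ones without overlap and with a change of at least 0.05, the 15 of smallest p in each direction (14 fell), and the event of smallest p in each gene list. FN1 exon 25, NOTUM exon 2, APOB, AFP and the other called events were named after their values were seen. The difference from siFUBP1 was tested by limma on log2 odds with 0.5 added to each count and a variance trend over 12 libraries, and by a quasi-binomial form. The siFBL table is not described here. Members, gene lists and tests were chosen with earlier results of these data known. Both quasi-binomial tests, and limma with a trend on information for U3 ASO against GFP ASO, were run on simulated data. The other limma forms were not. Alternatives were other read filters, tests, centring, priors, thresholds, annotation and leaving out each library. Summaries were made with Python 3.11.15, pandas 2.3.3 and numpy 2.4.6. Reads have no molecular identifiers, so read numbers cover counting error only.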

Additional observations from a re-analysis of the deposited data

How the results depend on the processing

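The 56 called events became 57 with a minimum of 20 reads, 55 without a filter, 56 with the dispersion prior on mean reads (36 of them shared), 43 at a threshold of 0.05 and 52 on primary chromosomes alone. limma on the log2 odds gave 251 calls with a trend on information, a form that called 812 unchanged events in simulated data. With median centring added it gave 317, and that form was not run on simulated data. It gave 0 calls without a trend (1961 with an unadjusted p under 0.05) and 0 with a trend on the mean log2 odds (1927). Leaving out 1 library gave 30 to 48 calls, with 31 without GFP ASO library 2 and 35, 33 and 30 without U3 ASO library 1, 2 and 3. The share of calls with lower inclusion was 44.6%, against 21.1% after median centring, which removes a median shift of -0.29 in log2 odds, and 36.7% to 51.6% on leaving out a library, the highest being without GFP ASO library 2. Of the 29 named events, 16 stayed called in all 6 fits that left out a library and 13 did not, as did 3 and 16 of the 19 other called events named. The direction of these 48 changes could not reverse on leaving out a library, because all were chosen for groups that did not overlap. The other alternatives leave the change itself as it is. The 62 differences from siFUBP1 became 25 by the quasi-binomial form, 64 with a minimum of 20 reads, 0 without a variance trend (886 with an unadjusted p under 0.05), and 35 to 83 on leaving out a library, the lowest without U3 ASO library 3. The cause of these shifts was not tested.

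For exon types, the coding difference of -0.00520 became -0.00471 with a minimum of 20 reads, -0.00639 from pooled reads and -0.00544 to -0.00496 on leaving out a library. The decay-linked difference of 0.0180 became 0.0279 from pooled reads, 0.00453 with basic transcripts alone (15 events in place of 821) and 0.0138 to 0.0205 on leaving out a library. The 5′ UTR difference of 0.00359 was -0.000153 with basic transcripts and 0.000571 to 0.00814 on leaving out a library. Exons of other noncoding transcripts had 0.0209, and 0.0488 with basic transcripts (4 events). Noncoding genes had 0.00162, and 0.0261 from pooled reads, -0.000685 with basic transcripts and -0.00530 to 0.00766 on leaving out a library, where the values without GFP ASO library 2 (-0.00530) and U3 ASO library 2 (-0.00191) turned negative. Exons not annotated had 0.0102, and -0.0640 from pooled reads and 0.00673 to 0.0126 on leaving out a library.

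No paired analysis was possible because the deposited lists carry no replicate numbers. The quasi-binomial difference, the trend on the mean log2 odds and the fit on primary chromosomes were chosen after seeing the data. Depth limits low events, since the median event had 124.5 reads per library, and the called events whose groups stood apart had medians of 734 (rising) and 1188 (falling).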
